A study of Homo sapiens with 3 samples.

Results

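DREAM and MuvB are protein assemblies that switch cell cycle genes off and on. MuvB is a core of LIN9, LIN37, LIN52, LIN54 and RBBP4. In resting cells it joins a pocket protein (RBL1, also called p107, or RBL2, also called p130) and an E2F factor (E2F4 or E2F5) with its DP partner, and this DREAM complex represses genes needed for DNA replication and mitosis. When cells enter the cycle, MuvB leaves the pocket protein, and joins B-MYB, encoded by MYBL2, and later FOXM1 to activate mitotic genes. The p53 pathway is known to drive DREAM formation through the kinase inhibitor p21, encoded by CDKN1A. BACH1 is a heme-responsive repressor of transcription.

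The genes described here are these 10 subunits, matched by symbol in a table of 28890 genes, and all 10 were listed. The group was chosen because LIN37 is lower in both knockdown libraries, so the difference of LIN37 from the control is given as a description and supports nothing. The RNA came from Cal-33, an established line of human squamous carcinoma of the tongue, taken 72 h after transfection. The siRNA was a control (siControl), 1 against p53 (sip53) or 1 against BACH1 (siBACH1). The labels give the genotype of all cells as WT. There was 1 library per siRNA, so no difference has a replicate check, and no test or p-value is given. Values are TPM, relative transcript abundances scaled by transcript length so that genes can be set side by side, but keep no read depth. The depth behind each value is therefore unknown. In such bulk RNA, fewer cells expressing a gene and less of its RNA per cell cannot be told apart.

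The BACH1 transcript was at 15.2 TPM in siControl, 19.6 TPM in sip53 and 4.30 TPM in siBACH1, which is 28.4% of the control in the library labelled with its siRNA. All 10 squamous epithelial markers examined were above 1 TPM in every library, with summed levels of 11881 TPM in siControl, 11037 TPM in sip53 and 7277 TPM in siBACH1. Of 7 fibroblast markers, 1 reached 1 TPM in siControl, 1 in sip53 and 2 in siBACH1, with sums of 4.18 to 5.15 TPM. The immune list summed to 35.0 to 41.2 TPM, almost all of it CD68 (32.0 to 38.3 TPM), while the T cell marker CD3E was listed at 0 in siControl and sip53. Of 5 endothelial markers, KDR and CLDN5 were listed at 0 in every library and CDH5 was at 16.0 to 18.7 TPM. The part of these levels in the results below was not tested.

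A junction at which LIN37 differs from an overlapping transcript is shown first, because they share much of their sequence. It is not the only stretch that differs between them. LIN37 lies on chromosome 19, at 35748361 to 35754519 on the plus strand (GRCh38, GENCODE release 29). In the same annotation an 11-exon read-through transcript, that of the gene AD000671.1, starts within the neighbouring gene PSENEN and skips the first exon of LIN37. It then uses the other 8 of the 9 exons of the longest protein-coding LIN37 transcript. The transcripts differ at the junction into the first exon they share, at 35752176 to 35752251. The 15 bases before that junction are shown in lower case and the 15 bases of the shared exon in capitals.
LIN37: aagtggagaaatcagAGCTGGAGATGGCCA
AD000671.1: gccaaatcaaaggctAGCTGGAGATGGCCA

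The capitals are the same in both, and the bases before them come from exon 1 of LIN37 (35748361 to 35748758) or from exon 3 of the read-through (35746419 to 35746523). Of the 1150 bases of that LIN37 transcript, 752 lie in shared exons. The authors' tool, kallisto, assigns reads by matching short words of sequence to transcripts, and its usual word length is 31 bases. Of the 1120 such words in that transcript, 722 (64.5%) also occurred in the read-through. The shorter protein-coding LIN37 transcripts, of 532 and 291 bases, shared 94.2% and 13.4% of their words with it. Over the 9 annotated LIN37 transcripts, 1538 of 2970 distinct words (51.8%) also occurred in another gene, and 1084 of them in the antisense gene AD000671.3, counting both strands. None of the shared LIN37 words occurred in a gene listed in the deposited table. Values for AD000671.1 and AD000671.3 were not analysed here, and their part in the LIN37 difference was not tested. Whether the authors counted against this annotation is unknown.

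**Figure D1:**
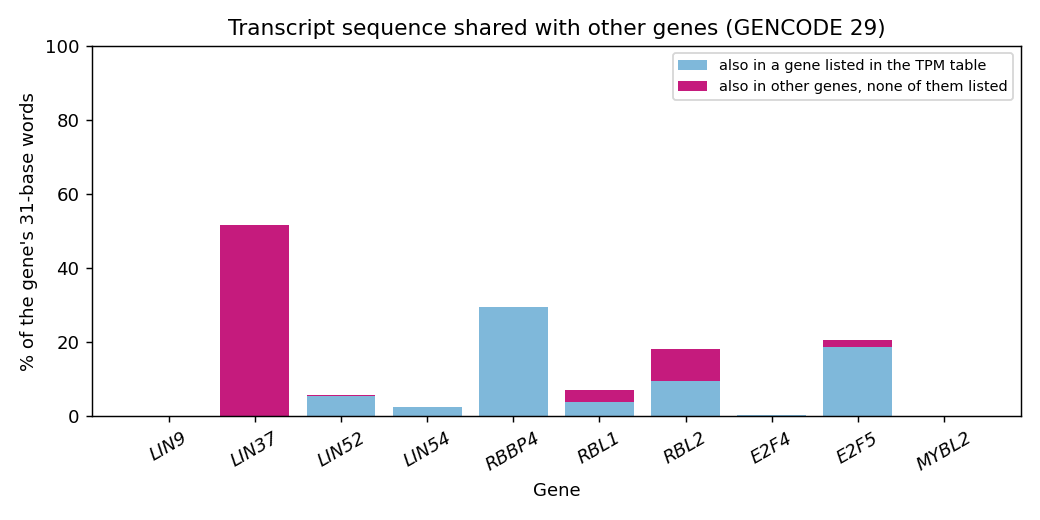
Share of each gene's distinct 31-base transcript words (y axis, %) that also occur in transcripts of other genes in GENCODE release 29. Blue marks words found in a gene listed in the TPM table, and magenta marks words found only in genes not listed there. LIN37 has the tallest bar, at 51.8%, all of it magenta, while LIN9 and MYBL2 are at 0%.

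The other subunits shared less of their sequence. RBBP4 shared 29.6% of its words, above all with SYNC, a gene on the opposite strand that overlaps its 3' end (16.6%), and with RBBP4 pseudogenes. E2F5 shared 20.5%, above all with the overlapping gene RBIS (14.6%), and RBL2 shared 18.2%, of which AKTIP held 7.94%. RBL1 shared 7.01%, LIN52 5.76%, LIN54 2.59% and E2F4 0.290%, and LIN9 and MYBL2 shared none. Of the 6 listed RBBP4 pseudogenes, 5 were at 0 in all libraries, and RBBP4P1 stayed under 0.1 TPM. The 1 listed E2F4 pseudogene was at 0 throughout. Of the listed genes that overlap a subunit, SYNC was at 3.80, 4.36 and 4.36 TPM in siControl, sip53 and siBACH1. THAP9, on the strand opposite LIN54, was at 2.69, 4.197 and 3.49 TPM and was lowest in the control. RBIS, which is more abundant than E2F5, was at 149.9, 158.1 and 143.4 TPM in the same order.

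Levels within the control library spanned from 2.30 TPM for E2F5 to 110.3 TPM for RBBP4. In siControl the descending order was RBBP4, MYBL2, E2F4, RBL2, RBL1, LIN54, LIN9, LIN52, LIN37 and E2F5. In both knockdown libraries 8 of the 10 genes kept their place, and LIN37 and E2F5 changed places, leaving LIN37 the lowest. With 1 library per siRNA, the spread that would tell neighbours in this order apart is not known. All 10 genes were above 1 TPM in every library.

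**Figure D2:**
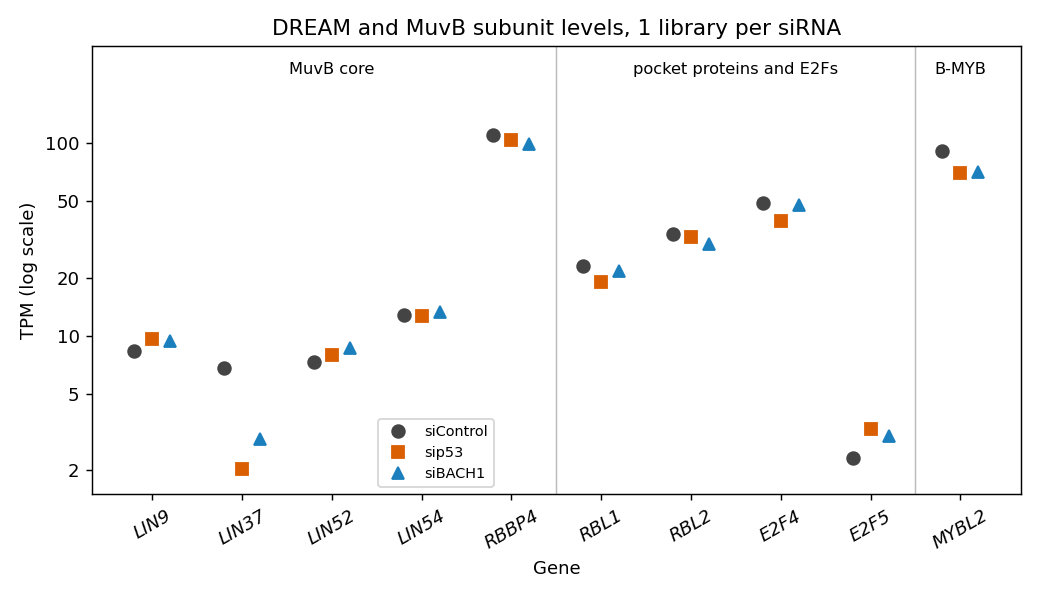
TPM of the 10 subunits (y axis, log scale) in the siControl (grey circles), sip53 (orange squares) and siBACH1 (blue triangles) libraries, 1 point per library. LIN37 lies at 6.81 TPM in siControl and at 2.02 and 2.92 TPM in the knockdowns, and of the other genes E2F5 spreads the most, from 2.30 to 3.28 TPM.

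Each knockdown library was set against siControl, to see how transcript levels differ with an siRNA to p53 or to BACH1. Differences are given as log2((TPM + 1)/(TPM + 1)), a log2 change that understates differences of weakly expressed genes. A gene was called lower or higher at 1.5-fold or more on this scale, among genes of at least 1 TPM in 1 or both libraries. In sip53, 1 of the 10 subunits was lower and 0 were higher, against 2.88% lower and 1.54% higher of 12412 measured genes. In siBACH1 the subunit counts were again 1 and 0, against 3.69% lower and 1.78% higher of 12437 measured genes. Since LIN37 was chosen on these contrasts, nothing is read from those counts. The split of all genes depended on scaling. It was 2.13% lower and 1.96% higher in sip53, and 2.71% and 2.36% in siBACH1, after rescaling to a median ratio of 1. It was 2.66% and 2.57% in sip53, and 3.57% and 2.81% in siBACH1, without mitochondrially encoded genes.

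LIN37 is the MuvB core subunit that DREAM needs to repress its targets, while activation by B-MYB and MuvB does not depend on it. It was at 6.81 TPM in siControl, 2.02 TPM in sip53 and 2.92 TPM in siBACH1. Both knockdown values lay below the control value. The level was 29.7% of control in sip53, a log2 change of -1.37, and 42.8% of control in siBACH1, a log2 change of -0.996. In sip53, 24 of the 12412 measured genes had a log2 change at or below that of LIN37, and 6 of the 11706 protein-coding ones. In siBACH1 those counts were 104 of 12437 and 57 of 11720. All these counts include LIN37 itself. Its low place follows from the choice of LIN37 on these contrasts, so nothing is read from it. At a threshold of 2-fold, LIN37 was the 1 subunit called in sip53, where 0.572% of all measured genes were lower and 0.395% higher. In siBACH1, 0 subunits were called at 2-fold, where 0.82% were lower and 0.611% higher. With a pseudocount of 5 TPM, LIN37 was not called lower in siBACH1 at 1.5-fold either.

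Genes as weakly expressed as LIN37 passed the threshold more often than others. Of the 3881 genes at 1 to under 10 TPM in siControl, 6.47% were lower in sip53 and 7.86% in siBACH1. Of the 7009 genes at 10 to under 100 TPM, 1.40% and 1.93% were lower. Among 12285 genes measured in both comparisons, 124 were lower in both, LIN37 among them, and both comparisons share the control library. A low or high value in that 1 control library moves both changes together.

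**Figure D3:**
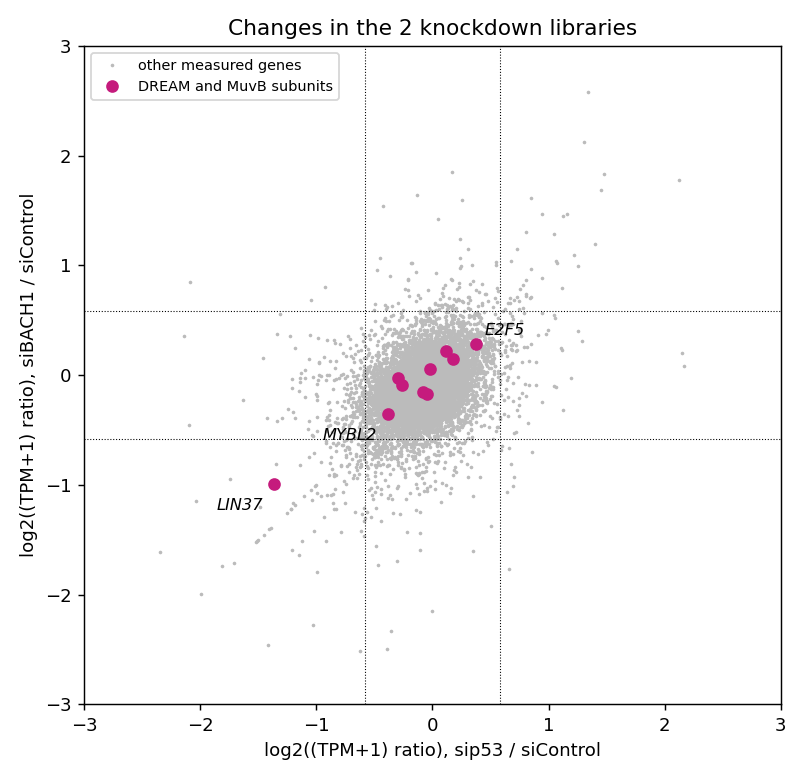
Log2 change of each measured gene in sip53 (x axis) and siBACH1 (y axis), both against the same siControl library, so the axes share a sample. Magenta points are the 10 subunits, grey points the other genes, and dotted lines mark 1.5-fold; 4 of 12285 genes lie outside the plotted range. LIN37, at -1.37 and -0.996, is the 1 subunit outside the dotted lines, and MYBL2 and E2F5 mark the ends of the other subunits.

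The other MuvB core genes stayed near their control levels, and positions below are of GRCh38 in GENCODE release 29. LIN9, a scaffold of the core (chr1:226231149-226309869, minus strand), was at 8.37 TPM in siControl, 9.58 TPM in sip53 and 9.37 TPM in siBACH1, with log2 changes of 0.18 and 0.15. LIN52, the subunit that the kinase DYRK1A phosphorylates to let MuvB bind a pocket protein (chr14:74084796-74201235, plus strand), was at 7.26, 7.97 and 8.63 TPM in the same order, with log2 changes of 0.12 and 0.22. Both genes were lowest in the control library, the opposite of LIN37.

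LIN54, the subunit that reads the cell cycle homology region (CHR) of DNA (chr4:82909973-83012926, minus strand), was at 12.8, 12.6 and 13.4 TPM. RBBP4, a histone-binding protein that also serves other chromatin complexes (chr1:32651142-32686211, plus strand), was at 110.3, 103.9 and 98.8 TPM. Their log2 changes in sip53 were -0.02 and -0.09, and both turned positive under some alternatives. In siBACH1 they were 0.05 and -0.16. The level of LIN9 relative to LIN37 was 1.23-fold in siControl, 4.74-fold in sip53 and 3.21-fold in siBACH1, and that of LIN52 was 1.07-fold, 3.94-fold and 2.96-fold. These ratios mostly restate the LIN37 values on which the group was chosen, so nothing is read from them. The median log2 change of the 5 core genes was -0.02 in sip53 and 0.05 in siBACH1, against medians of -0.07 and -0.08 over all measured genes. The sip53 median was positive after rescaling (0.05) and without mitochondrially encoded genes (0.06), and was -0.14 once transcript GC content and length were corrected for.

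Of the pocket proteins, which dock E2F4 or E2F5 onto MuvB, RBL1 (chr20:36996349-37095995, minus strand) was at 23.1 TPM in siControl, 19.01 TPM in sip53 and 21.6 TPM in siBACH1. RBL2 (chr16:53433977-53491649, plus strand) was at 33.8, 32.7 and 29.9 TPM. The control library was the highest for both, while RBL1 was lowest in sip53 and RBL2 in siBACH1. The RBL1 log2 changes were -0.27 in sip53 and -0.09 in siBACH1, and the RBL2 changes were -0.04 (positive under some alternatives) and -0.17. RBL2 exceeded RBL1 in every library, by 1.46-fold in siControl, 1.72-fold in sip53 and 1.39-fold in siBACH1.

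Of the repressor E2Fs, E2F4 (chr16:67192169-67198918, plus strand) was at 48.8 TPM in siControl, 39.5 TPM in sip53 and 48.0 TPM in siBACH1. In sip53 the value lay below the other pair, with log2 changes of -0.30 in sip53 and -0.02 in siBACH1, the latter positive under some alternatives. E2F5, on chromosome 8, was at 2.30, 3.28 and 3.02 TPM. It was the weakest of the 10 in the control and had the most positive log2 change of the 10 in both knockdowns, 0.37 and 0.28. E2F4 was 21.2-fold more abundant than E2F5 in siControl, 12.02-fold in sip53 and 15.9-fold in siBACH1.

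MYBL2 (chr20:43667019-43716496, plus strand) encodes B-MYB, which replaces the pocket protein and E2F on MuvB as cells go through S phase. It was at 91.4 TPM in siControl, 69.9 TPM in sip53 and 71.1 TPM in siBACH1. Both knockdown values lay below the control and differed little from each other, with log2 changes of -0.38 and -0.36. After LIN37 these were the most negative of the 10 genes, and neither passed 1.5-fold. Of the measured genes, 9.31% had a log2 change at or below that of MYBL2 in sip53, and 11.6% in siBACH1. Over all 10 subunits the median log2 change was -0.06 in both knockdowns, or 0.01 in sip53 and 0.02 in siBACH1 after rescaling. Without LIN37 the range was -0.38 to 0.37 in sip53 and -0.36 to 0.28 in siBACH1.

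The knockdown libraries were also set against each other. In siBACH1 against sip53, 0 of the 10 subunits passed 1.5-fold in either direction, where 3.18% of 12390 measured genes were lower and 2.84% higher. At 2-fold the subunit counts were also 0, where 0.759% were lower and 0.783% higher. LIN37 had the most positive log2 change, 0.37, followed by E2F4 at 0.28 and RBL1 at 0.17. RBL2 had the most negative, at -0.13.

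The neighbours of LIN37 on its chromosome were examined next. The 5 listed genes on each side along chromosome 19 were taken in order of their start, and 6 of the 10 reached 1 TPM in at least 1 library. None of the 10 was lower by 1.5-fold in either knockdown, and those under 1 TPM in every library do not count as measured. Over all measured genes, 2.88% were lower in sip53 and 3.69% in siBACH1. With shares that small, nothing is read from that count. PSENEN, a subunit of the gamma-secretase protease that lies just upstream, was at 71.7 TPM in siControl, 70.6 TPM in sip53 and 77.8 TPM in siBACH1. PROSER3, the next expressed gene downstream, was at 14.2, 14.5 and 16.8 TPM. ARHGAP33, a GTPase-activating protein, was at 2.70, 7.84 and 3.90 TPM. It was the 1 neighbour higher by 1.5-fold, in sip53 (log2 change 1.26), where 1.54% of all measured genes were higher.

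**Figure D4:**
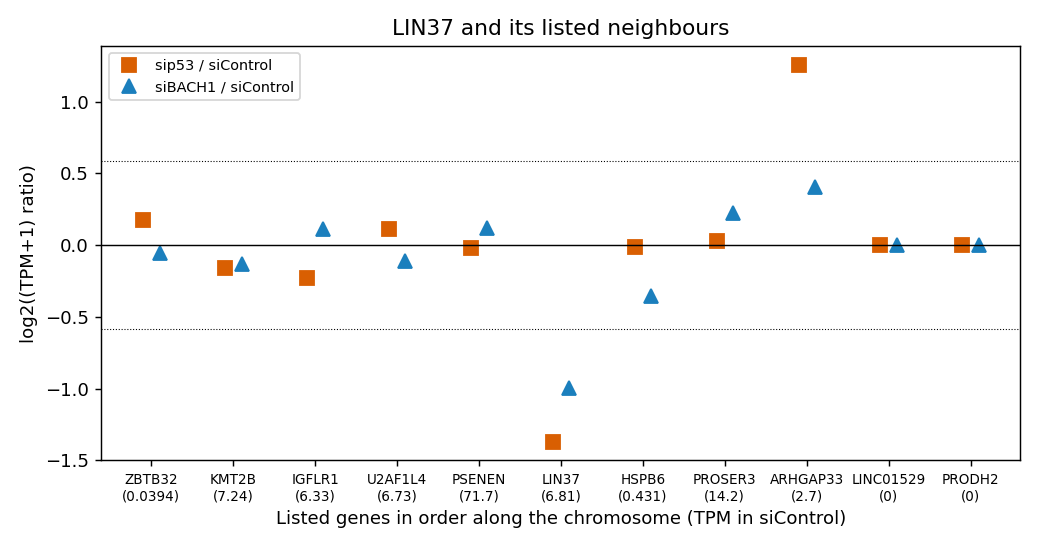
Log2 change (y axis) of LIN37 and the 5 listed genes on each side, in order along the chromosome and not to scale, in sip53 (orange squares) and siBACH1 (blue triangles) against siControl. Numbers under the names are TPM in siControl, and dotted lines mark 1.5-fold. LIN37 lies below the lower line in both libraries, and ARHGAP33 above the upper line in sip53.

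By pattern, the genes most like LIN37 were sought among 9856 protein-coding genes of at least 5 TPM in 1 or more of the 3 libraries. Likeness was the distance between genes in the plane of the 2 log2 changes. ST20-MTHFS, itself a read-through transcript, was nearest at a distance of 0.24, with 6.44 TPM in siControl, 1.66 TPM in sip53 and 2.23 TPM in siBACH1. PLCXD1 (distance 0.46), ICAM5 (0.47), PLXNB3 (0.52) and ASB2 (0.55) followed. All 5 were between 6.44 and 7.39 TPM in the control and between 1.66 and 3.84 TPM in the knockdowns. Each therefore passed the filter of 5 TPM only through the control library, which both changes share. Likeness was defined by those changes, so nothing is read from the pattern or the control levels.

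Short promoter sites of DREAM are shown because several subunits are encoded by genes of the kind the complex itself binds. Promoter windows from RefSeq (GRCh38.p14, 250 bases before to 50 after each start) were found for 9 of the 10 genes, E2F5 being the other one. Both strands were searched. The E2F letters were TTCCCGC in the first form, TTGGCGC in the second form, TTCGCGC in the third form and TTGCCGC in the fourth form. The CHR letters were TTTGAA in the usual form or TTCGAA in the other form. The third search was for TGACNNNGC, the core of the element that BACH1 binds. Each line gives 30 bases read on the gene's strand, with the match in capitals.
RBL1 (chr20:37096004-37096033, minus): agctgcagattTTCGCGCgctttggcgcag
RBBP4 (chr1:32651154-32651183, plus): attggctgatgTTGGCGCgaaggtgcgcga
LIN52 (chr14:74084921-74084950, plus): ggaacctcgttTTCCCGCcgacggttggcc
LIN9 (chr1:226309492-226309521, minus): acagcctgcagTTCCCGCagctgcagcgcg
LIN54 (chr4:83010906-83010935, minus): ggcccttgtgcgTTTGAAggttggcggggc
LIN37, CHR letters (chr19:35748620-35748649, plus): acgaagctcatcTTTGAActgtccccgcct
LIN37, BACH1 element letters (chr19:35748683-35748712, plus): ggggcgcctcTGACCCAGCtagccagatcc

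E2F letters were found in 4 of the 9 genes (LIN9, LIN52, RBBP4 and RBL1), against 15.3% of 27305 gene symbols with a window. RBL1 held a second match within 10 bases of the one printed, and in RBBP4 a match on the other strand overlapped it. CHR letters were found in LIN9, LIN37, LIN54 and RBL2, or 4 of 9, against 19.5% of symbols. Both LIN37 matches lie within its first exon in GENCODE release 29, upstream of a second start in RefSeq. The letters TGACNNNGC were found in LIN37, LIN52 and RBBP4, against 16.1% of symbols. A gene with several annotated starts has several windows, and LIN9 had 3. These are matches of letters, not sites shown to be bound. The genes with E2F letters differed in sign. Their log2 changes in sip53 were 0.18 for LIN9, 0.12 for LIN52, -0.09 for RBBP4 and -0.27 for RBL1.

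Partners of the complexes and related genes outside the 10 were held to the same 1.5-fold threshold. Over all measured genes, 2.88% were lower and 1.54% higher in sip53, and 3.69% and 1.78% in siBACH1. With shares that small, nothing is read from a count of 0 in a short list. Of TFDP1 and TFDP2 (the DP partners of E2Fs), DYRK1A, FOXM1 and RB1 (the third pocket protein, not one of those that join MuvB), 0 of 5 passed in either knockdown. TFDP1 was at 153.3 TPM in siControl, 122.0 TPM in sip53 and 132.4 TPM in siBACH1, with log2 changes of -0.33 and -0.21. FOXM1, which follows B-MYB onto MuvB, was at 82.0, 66.8 and 74.6 TPM. Of 12 paralogs of the subunits, a list that counts RB1 again, 11 were measured and 0 passed in either knockdown. Among these paralogs E2F1, an activating E2F, was at 18.2 TPM in siControl, 13.3 TPM in sip53 and 17.7 TPM in siBACH1.

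Of 15 cyclins, kinases and inhibitors that act on pocket proteins or, like DYRK1A (counted again here), on their binding to MuvB, 14 were measured. In sip53, 0 passed, against 2.88% lower and 1.54% higher of all measured genes. The log2 change was negative for 7 and positive for 7, with a median of -0.03 (0.04 after rescaling). The most negative were CDK2 at 66.0 TPM in siControl and 45.9 TPM in sip53 (log2 change -0.52) and CDK4 at 154.3 and 112.4 TPM (-0.45). The most positive was CDKN1B, which encodes the kinase inhibitor p27, at 25.02 and 29.9 TPM (0.25). In siBACH1, 1 of the 14 was lower and 0 higher, against 3.69% and 1.78% of all measured genes. The lower one was CCNA2, the cyclin of S phase and early mitosis. It was at 71.7 TPM in siControl, 76.9 TPM in sip53 and 39.4 TPM in siBACH1 (log2 change -0.85 in siBACH1). CDKN1A, which encodes the p21 inhibitor that links p53 to DREAM, was at 54.7, 51.7 and 43.2 TPM in the 3 libraries.

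Known targets of the complexes were summarised in lists chosen with earlier results of these data in view. Of 40 G1/S targets, which serve DNA replication and include RBL1 and MYBL2, 7 were lower in sip53 and 0 higher, against 2.88% lower and 1.54% higher over all measured genes. Most of the 40 lay at 10 to under 100 TPM in siControl, where those shares were 1.4% and 0.185%. With so few genes higher there, nothing is read from the 0. The log2 change was negative for 38. Most measured genes were also negative in sip53 before rescaling, 58.8% of them at or below the -0.02 of LIN54. The median over the list was -0.39 against -0.07 over all measured genes. The 7 were MCM2, MCM5, MCM7, CDT1, GINS2, TK1 and ORC1, and the count was 3 after rescaling or without mitochondrially encoded genes, and 4 with a pseudocount of 5 TPM or after correction for GC content and length. Over all measured genes, 2.13% were lower after rescaling and 2.66% without mitochondrially encoded genes. The share was 0.556% with a pseudocount of 5 TPM and 2.27% after the correction for GC content and length. The mitochondrial share of TPM was 24.2% in siControl, 28.6% in sip53 and 27.6% in siBACH1. ORC1, the largest subunit of the origin recognition complex, was at 15.7 TPM in siControl, 9.66 TPM in sip53 and 15.3 TPM in siBACH1. In siBACH1, 0 of the 40 passed, against 3.69% lower and 1.78% higher of all measured genes. The list median was -0.08, and CCNE1 (-0.52) and MCM4 (-0.44) had the most negative changes.

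Of 50 G2/M targets, which serve mitosis, 0 passed in sip53 and 1 in siBACH1, again CCNA2. All 50 were above 10 TPM in siControl, where fewer genes pass. At 10 to under 100 TPM, 1.4% of genes were lower and 0.185% higher in sip53, and 1.93% and 0.228% in siBACH1. At 100 TPM or more the shares were 0.612% and 0% in sip53, and 1.45% and 0.153% in siBACH1. With shares that small, nothing is read from these counts. Over all measured genes, 2.88% were lower and 1.54% higher in sip53, and 3.69% and 1.78% in siBACH1. The medians of the 50 were -0.06 and 0.00. UBE2S, a ubiquitin-conjugating enzyme of mitotic exit, was at 199.2 TPM in siControl, 147.8 TPM in sip53 and 133.3 TPM in siBACH1, with log2 changes of -0.43 and -0.58. Of 23 genes of other RBBP4 complexes (chromatin assembly, Polycomb, NuRD, Sin3 and nucleosome remodelling), 0 passed in either knockdown, against the same shares over all measured genes. CHAF1B, a chromatin assembly subunit, was at 19.6 TPM in siControl and 14.2 TPM in sip53 (-0.44), and the remodeller SMARCA1 was at 12.4 TPM in siControl and 9.10 TPM in siBACH1 (-0.41).

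**Figure D5:**
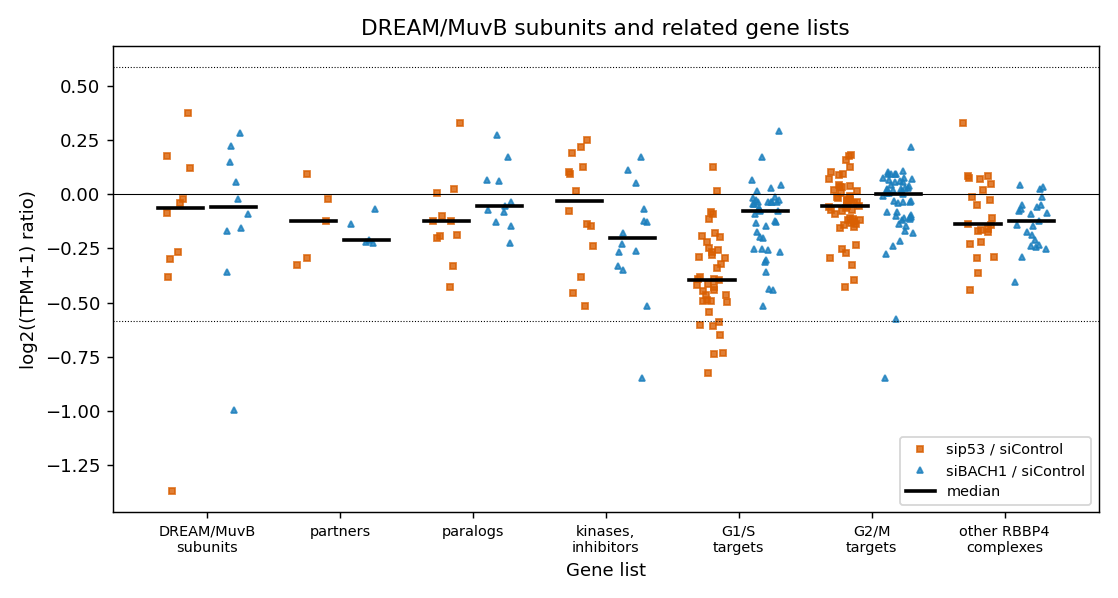
Log2 change (y axis) of each measured gene of the DREAM and MuvB subunits and 6 related lists, in sip53 (orange squares) and siBACH1 (blue triangles) against the shared siControl library. Black bars are medians and dotted lines mark 1.5-fold. The G1/S targets in sip53 have the lowest median, -0.39, and LIN37 is the lowest point in both knockdowns.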

How the data were processed

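The authors deposited 1 table of TPM, per the file headers, with 3 columns. Tools named in the submitters' processing notes are bcl2fastq 2.20 and kallisto 0.44.0. They list the builds GRCh38, GRCm38 and mm10 with no role. No source used here gives the transcript annotation, the strand setting or how genes were summed. Listed genes summed to 978371 to 979148 TPM per library, and 12113 to 12198 genes reached 1 TPM. TPM keeps no depth, so no counting interval is given.

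From the TPM, log2 changes were computed with a pseudocount of 1 TPM (pandas 2.3.3, numpy 2.4.6). The error rate of the calls in these libraries was not tested. Shared 31-base words, coordinates and junctions came from GENCODE release 29, and promoter windows from RefSeq. All 10 subunits are described. Of the target lists and other RBBP4 complexes, named genes come from the 4 with the largest absolute change per knockdown, and the 7 called G1/S targets, MCM2, MCM7 and TK1 among them, were named after their values were seen, as were CDH5 and CD68. The subunits and lists were chosen with earlier results of these data known. The transcript targeted by the sip53 siRNA is not reported here. Alternatives were other pseudocounts, filters, scalings and a 2-fold threshold. The correction for GC content and length (lowess, statsmodels 0.14.6) was chosen after seeing the data.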

Additional observations from a re-analysis of the deposited data

How the results depend on the processing

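No paired analysis was possible because each siRNA has 1 library. Values near 0 changed sign under some alternatives, and LIN37, the 1 subunit past 1.5-fold, did not. In sip53 the MuvB core median turned to 0.05 after rescaling and 0.06 without mitochondrially encoded genes, and the G2/M median to 0.02 and 0.03. In siBACH1 the G1/S median turned to 0.01 after rescaling. The subunit median turned to 0.01 and 0.02 in sip53 and to 0.02 and 0.01 in siBACH1. Under some alternatives LIN54, RBBP4 and RBL2 turned positive in sip53, and E2F4 in siBACH1. LIN37 kept a negative log2 change under every alternative run, between -1.70 and -0.75 in sip53 and between -1.20 and -0.58 in siBACH1. A pseudocount of 5 TPM gave the values nearest 0. LIN37 was chosen as lower in both knockdowns, and every alternative reuses the same libraries. The kept sign therefore supports nothing. The count of subunits lower in siBACH1 went from 1 to 0 with a pseudocount of 5 TPM and with a 2-fold threshold. At those settings 0.772% and 0.82% of all measured genes were lower. The median of the MuvB core in sip53 was -0.14 after correction for GC content and length. Among the 131 measured related genes outside the subunits, the count lower in sip53 was 7. It was 4 after that correction and with a pseudocount of 5 TPM, 3 after rescaling and without mitochondrially encoded genes, and 0 at 2-fold. Over all measured genes the share lower in sip53 was 2.88%, 2.27% after that correction and 0.556% with a pseudocount of 5 TPM. That share was 2.13% after rescaling, 2.66% without mitochondrially encoded genes and 0.572% at 2-fold. Of the 131, the count lower in siBACH1 went from 1 to 0 at 2-fold, where the share over all measured genes went from 3.69% to 0.82%. In siBACH1 against sip53, 4 of the 131 were higher and 1 lower, against 2.84% higher and 3.18% lower over all measured genes. The higher count became 2 after the correction, 1 with a pseudocount of 5 TPM and 0 at 2-fold. The share higher over all measured genes was 2.58%, 0.597% and 0.783% in the same order. The lower count became 2 after the correction and without mitochondrially encoded genes, 3 with a pseudocount of 0.1 TPM and 0 at 2-fold. The share lower over all measured genes was 3.12%, 4.09%, 5.04% and 0.759% in the same order. Pseudocount and threshold act on these counts by construction; for the other settings the cause was not tested. At a minimum of 5 TPM, E2F5 was left out throughout and LIN37 in siBACH1 against sip53. Replicate error and depth are unknown, which limits every value.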
